A study of Danio rerio with 2 samples.

Results

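Zebrafish genomic regions that were listed as uracil-DNA enriched only when reads of low mapping quality were kept are described here. They are the regions in the unfiltered list at a threshold of 0.25 that share no base with the list made at the same threshold after a filter on mapping quality. By this rule 1850 of the 10455 unfiltered regions were unfiltered-only (17.7%, Wilson 95% interval 17.0 to 18.4), and the other 8605, called sharing regions here, held at least 1 base of a filtered region. The unfiltered-only regions lay on all 25 numbered chromosomes of GRCz11. The members were chosen by the score of the enriched library against the input, as it passed 0.25 without the filter and not with it, so lengths, scores and positions of the members are given as descriptions without a test.

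The lists came from DNA of wild-type embryos of the AB strain at 2.5 hpf. A FLAG-tagged sensor of uracil in DNA bound the fragments that carry it, and these were collected with an anti-FLAG gel. This enriched library was compared with sonicated input DNA of the same stage that had not been pulled down. The labels give both as wild-type and name no treatment, and there was 1 library per arm, so no value has an error between samples. Each list gives a position, nearly always in steps of 100 bp, and a score per region. Positions here are on GRCz11 and counted from 1. The score has no stated scale, is above the threshold for every region of a list and was not compared between filtered and unfiltered lists.

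Uracil enters DNA when a polymerase takes dUTP in place of dTTP, or when cytosine loses its amino group. dUTPase keeps dUTP low, and uracil-DNA glycosylase opens the repair of uracil that is already in DNA. The embryo at this stage runs through fast cleavage cycles, shortly before the main wave of its own transcription. Mapping quality states how surely a read belongs to the place it was put. A read that matches several copies of a repeat equally well gets a low value from the aligner and is put at one of them. Signal that is listed only without the filter is therefore a candidate for repeated sequence, and because no genome sequence or repeat annotation was used here, whether these regions are repeats was not tested.

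The unfiltered-only regions were short and their scores lay close to the threshold. Their median length was 500 bp (exact binomial 95% interval 500 to 600), against 900 bp in sharing regions (900 to 900). A single step of 100 bp made up 239 of the 1850 unfiltered-only regions (12.9%, interval 11.5 to 14.5), against 595 of the 8605 sharing regions (6.91%, 6.40 to 7.47). At the other end of the range, 56 unfiltered-only regions were over 5 kb long (3.03%, 2.34 to 3.91) and 8 over 10 kb, against 689 (8.01%, 7.45 to 8.60) and 176 sharing regions. Unfiltered-only regions together covered 2.10 Mb and sharing regions 16.9 Mb. By bases the members were thus a smaller part of the unfiltered list, 11.0%, than by number.

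The median score was 0.263 in unfiltered-only regions (0.262 to 0.264) and 0.274 in sharing regions (0.273 to 0.275). Scores under 0.26 were found in 778 unfiltered-only regions (42.1%, 39.8 to 44.3), against 2216 sharing regions (25.8%, 24.8 to 26.7). The highest score was 0.804 among unfiltered-only regions and 1.93 among sharing regions. Length and score went together in both classes, with a Spearman rho over regions of 0.89 in the 1850 unfiltered-only regions and 0.92 in the 8605 sharing ones. Regions of a library are not independent replicates, and this rho is a description of the list.

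Within each length class the median score was lower in unfiltered-only than in sharing regions, by little in the short classes. At 100 bp it was 0.2518 in unfiltered-only regions (0.2516 to 0.2521) and 0.2519 in sharing regions (0.2517 to 0.2522). The intervals overlapped at 100 bp, 200 bp, 600 to 1000 bp and 2100 to 5000 bp. Between 600 and 1000 bp the median score was 0.270 in unfiltered-only regions (0.269 to 0.272, n = 361) and 0.271 in sharing regions (0.271 to 0.272, n = 1687). Over 5000 bp it was 0.409 in unfiltered-only regions (0.395 to 0.434, n = 56) and 0.480 in sharing regions (0.466 to 0.491, n = 689). The part of the unfiltered list that was unfiltered-only was smaller in the longer classes, 28.7% at 100 bp (25.7 to 31.8), 20.5% at 300 to 500 bp (18.9 to 22.2), 15.0% at 1100 to 2000 bp (13.4 to 16.7) and 7.52% over 5000 bp (5.83 to 9.64). As the rule itself bears on length, nothing is read from this fall.

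**Figure D1:**
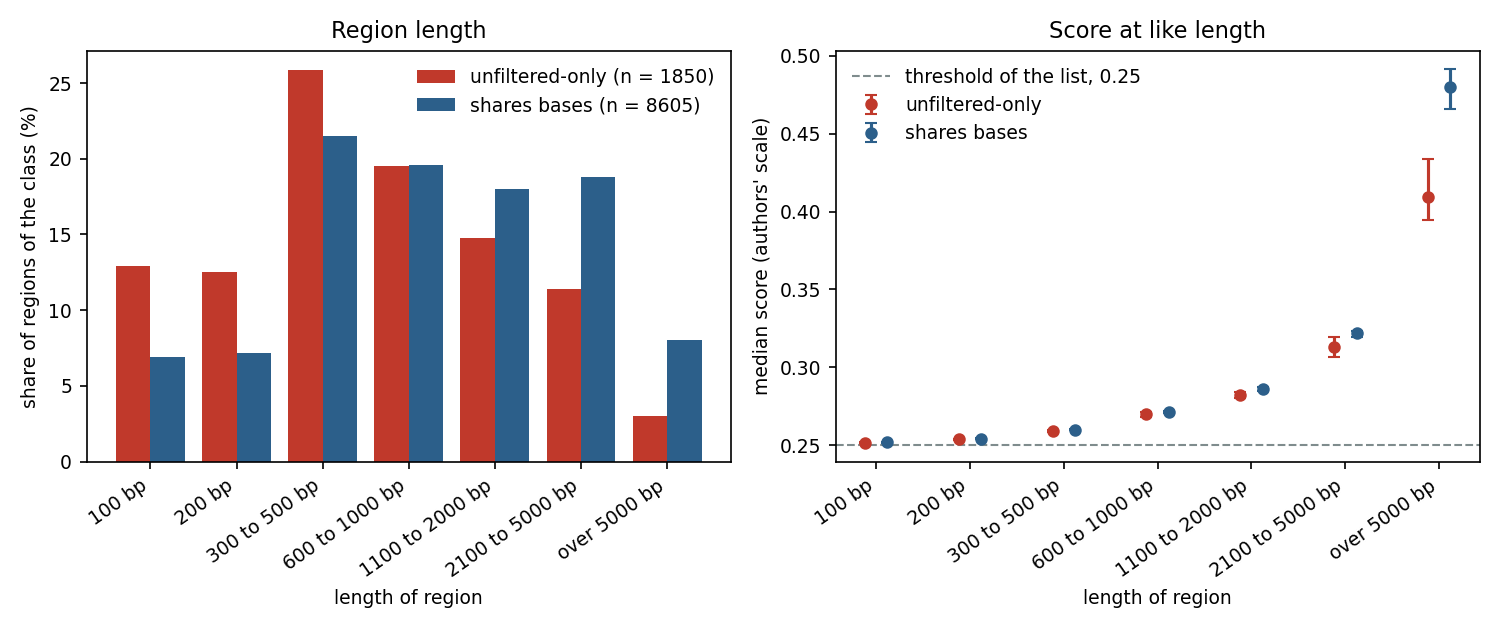
Left, share of the regions of each class (%) by length class, for the 1850 unfiltered-only regions (red) and the 8605 sharing regions (blue). Right, median score on the authors' scale by length class with exact binomial 95% intervals as bars. The median is lower in unfiltered-only than in sharing regions in each length class, with overlapping intervals in some, such as at 100 bp. Over 5000 bp it is 0.409 in unfiltered-only and 0.480 in sharing regions.

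A minority of the members held bases that also passed the threshold of 0.5. In the unfiltered list at 0.5, 67 regions lay within 41 of the 1850 unfiltered-only regions (2.22%, 1.64 to 2.99), against a base in that list for 708 of the 8605 sharing regions (8.23%, 7.67 to 8.83). Over all unfiltered regions the share was 7.16%. The rule chose members on the same score, so nothing is read from these shares. The 67 regions covered 133.4 kb, with a median score of 0.535 and a highest one of 0.818, against a median of 0.551 over the other 1060 regions of that list. The 41 members that held them were between 4000 and 35600 bp long, with a median of 6400 bp. They were spread over 18 chromosomes, with at most 5 on any chromosome, 3 on chromosome 4 from 27 Mb on and 1 within 1 Mb of a chromosome end. None of the 1850 members had a base in the unfiltered list at 1 (0%, 0 to 0.207), against 77 of the 8605 sharing regions (0.895%, 0.717 to 1.12). These 77 were thus all such regions among the 10455 of the unfiltered list. Nothing is read from the difference between the classes either.

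The highest score of a member, 0.804, was at chr7:264701-269900. A filtered region with a score of 0.274 lay 1.1 kb away, from 262701 to 263600. The second, 0.625, was at chr7:45854801-45860800, and the third, 0.605, at chr8:41156101-41161100, where all 5000 bp were still listed at 0.5. These were followed by chr11:25778801-25784100 (0.566), chr7:44928701-44937200 (0.557), chr14:41793401-41802500 (0.544) and chr14:23632701-23649400 (0.534). The last of the 10 were at chr8:23086201-23094300 (0.526), chr4:57661201-57669300 (0.520) and chr8:35125801-35161400 (0.512). Chromosomes 7 and 8 thus held 3 of these 10 each. All 10 were at least 5000 bp long, and the nearest filtered region was between 1.1 and 334.0 kb away.

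The longest member was the one at chr8:35125801-35161400, of 35.6 kb, of which 18.9 kb was still listed at 0.5. No filtered region lay within 85.8 kb of it. The next were 25.1 kb at chr24:27638201-27663300, 23.8 kb at chr5:70036501-70060300, 16.7 kb at chr14:23632701-23649400 and 13.7 kb at chr5:27793901-27807600. Their nearest filtered regions were between 105.5 and 515.6 kb away. Each of these 5 had at least 1.8 kb in the list at 0.5.

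The median distance from a member to the nearest filtered region was 48.6 kb (44.2 to 52.6), and the farthest member was 652 kb away. For the 6832 filtered regions with no base in the unfiltered list, the median distance to an unfiltered region was 35.7 kb (33.8 to 37.9). Of these, 24.7% were over 100 kb away. With both lists at 0.5 the median distance of the unfiltered-only regions was 13.3 kb, and with both at 1 it was 10.9 kb. These are other sets of regions, as only 95 of the 370 at 0.5 had no base in the filtered list at 0.25. Of the 1850 members at 0.25, 9 touched a filtered region without sharing a base, 157 had one within 1 kb, 309 between 1 and 10 kb, 844 between 10 and 100 kb and 531 farther off (28.7%, 26.7 to 30.8). The 41 members with signal at 0.5 had a median distance of 90.1 kb, and 2 of them had a filtered region within 1 kb.

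At the edge of the rule, the member with the highest score among those touching a filtered region was a single step at chr15:11484401-11484500 (0.375), next to a filtered region of 7800 bp that scored 0.884. On the other side of the rule, a sharing region of 16.9 kb at chr15:20781001-20797900 (0.371) had 300 bp in the filtered list, or 1.78%. Another at chr3:29683001-29687900 (0.320) had 100 bp, or 2.04%. Such cases were few by number, as 278 of the 8605 sharing regions were covered to under 50% and 7142 were covered whole. They weighed more by bases. With those 278 counted as members, member bases rose from 2.10 to 3.02 Mb. Of all bases in the unfiltered list, 80.5% were also in the filtered list, so some bases of sharing regions were listed only without the filter.

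The opposite set, listed only with the filter, was larger in number and made of shorter regions. In the filtered list at 0.25, 6832 of 14806 regions shared no base with the unfiltered list (46.1%, 45.3 to 46.9). By the median, these filtered-only regions had 400 bp, and the largest had 6500 bp, whereas the longest unfiltered-only region had 35600 bp. Over 5 kb there were 56 of 1850 unfiltered-only regions (3.03%, 2.34 to 3.91), against 8 of 6832 filtered-only ones (0.117%, 0.0593 to 0.231). A base in the list of their own kind at 0.5 was found for 41 unfiltered-only regions (2.22%, 1.64 to 2.99) and for 8 filtered-only regions (0.117%, 0.0593 to 0.231). For regions that shared a base with the other list, it was 8.23% of the 8605 unfiltered and 10.3% of the 7974 filtered ones (819). Over all 10455 unfiltered regions the share was 7.16%. Over all 14806 filtered regions it was below this 7.16%, as the 6832 filtered-only ones added only 8 to the 819. The number and length of regions in each kind of list, at 0.25 as at 0.5, depend on the scale of its score, which is not stated.

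Unfiltered-only regions lay next to one another. The nearest other region of the unfiltered list was itself unfiltered-only for 1094 of the 1850 members (59.1%, 56.9 to 61.4), against 862 of the 8605 sharing regions (10.02%, 9.40 to 10.7), in a list of which 17.7% was unfiltered-only. The median gap to that neighbour was 1.9 kb for members (1.6 to 2.5) and 12 kb for sharing regions (10.3 to 13.5). Within 1 kb, 784 members had a neighbour of either kind (42.4%, 40.1 to 44.6), against 2871 sharing regions (33.4%, 32.4 to 34.4). Within 100 kb the shares were 84.5% of members (82.8 to 86.1) and 82.4% of sharing regions (81.6 to 83.2).

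Neighbouring rows can be pieces of a single enriched stretch, so all unfiltered regions within 10 kb of each other were also merged. Of the 7343 stretches, 1040 held unfiltered-only regions alone, 299 were mixed and 6004 held sharing regions alone. The first kind had 1454 of the 1850 members (78.6%), of which 750 were alone in their stretch and 704 lay in 290 stretches of 2 or more. The nearest stretch was of unfiltered-only regions alone for 373 of the 1040 such stretches (35.9%, 33.0 to 38.8), against 631 of the 6004 stretches of sharing regions (10.5%, 9.76 to 11.3), while such stretches made up 14.2% of all. The tendency to lie beside their own kind was therefore smaller after merging.

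**Figure D2:**
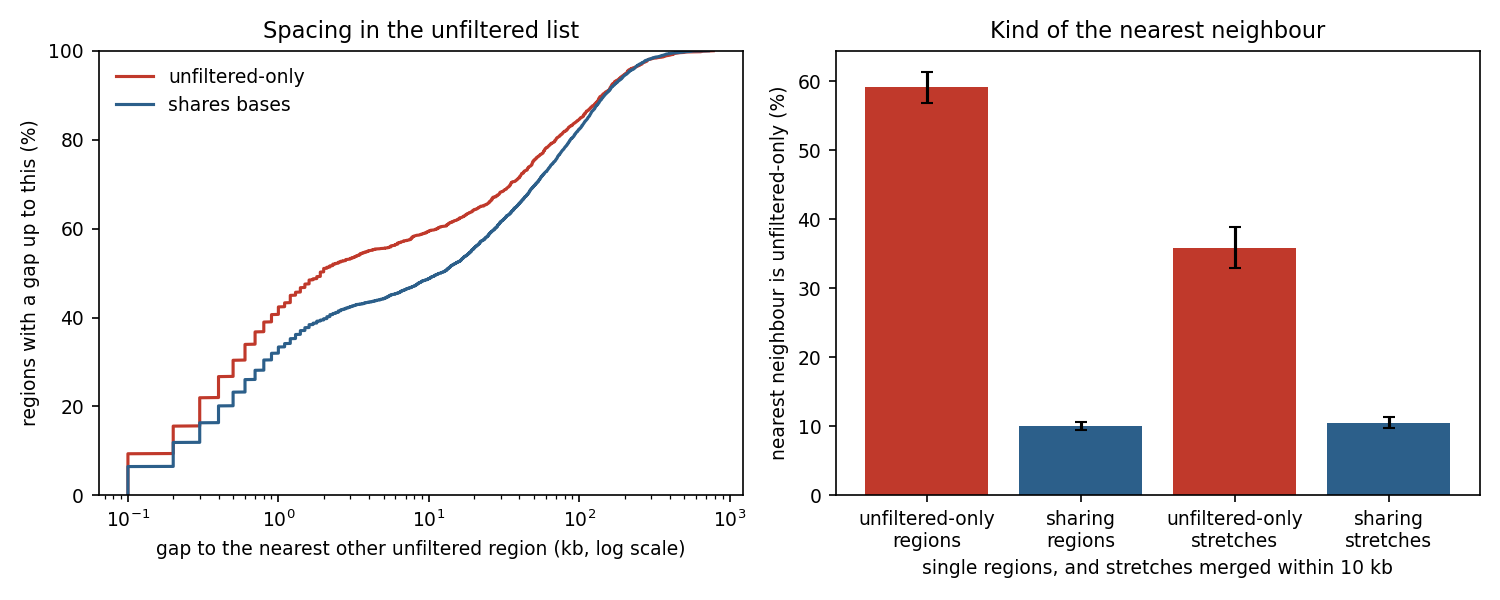
Left, cumulative share of regions (%) by the gap to the nearest other unfiltered region in kb on a log scale, for unfiltered-only (red) and sharing regions (blue), with medians of 1.9 and 12 kb. Right, share (%) of regions, and of stretches merged within 10 kb, whose nearest neighbour is unfiltered-only, with Wilson 95% intervals as bars; it is 59.1% for unfiltered-only and 10.02% for sharing regions, and 35.9% and 10.5% for their stretches.

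When members alone were merged within 10 kb, 1353 stretches remained, or 1.01 per Mb, against 6307 stretches of sharing regions, or 4.70 per Mb. At 10 kb, 845 members (45.7%) and 4020 sharing regions (46.7%) lay in a stretch with others of their class. Another stretch of the class lay within 100 kb of 31.0% of the unfiltered-only stretches (28.6 to 33.5) and of 62.8% of the sharing ones (61.6 to 64.0). This order turned with both lists at 0.5, where the shares were 25.8% of unfiltered-only and 18.8% of sharing stretches. It also turned with both at 1, where they were 36.8% and 8.96%. The unfiltered-only regions at these thresholds are other sets than the 1850 members. Unfiltered-only stretches were fewer than sharing ones at 0.25, and the part of their number in this share was not tested.

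The stretch with the most members was at chr15:7210701-7249500, where 11 members covered 16.2 of 38.8 kb. They were between 300 and 5300 bp long and scored between 0.254 and 0.433, and the longest of them, at the start of the stretch, had the highest score. No filtered region and no sharing region lay in it, and the nearest filtered region was 99.5 kb from its edge. The next were at chr25:18792801-18835800 with 8 members and chr15:9661201-9695500 with 7. Then came 4 stretches of 6 members each. Of these, the one at chr14:41786101-41825000 held 26.7 kb of member bases, the one at chr21:6158401-6181600 held 11.1 kb, the one at chr4:26705101-26711200 held 4.8 kb and the one at chr24:25966001-25972300 held 1.9 kb. The chromosome 14 stretch includes the member scored 0.544. The 4 stretches of 6 members held no filtered region, while the one on chromosome 25 had 6 filtered regions in it and the second one on chromosome 15 had 1.

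The long arm of chromosome 4 is known in zebrafish as a heterochromatic, repeat-rich and late-replicating arm with few single-copy genes, and it was set apart here as the sequence from 27 Mb on. It held 79 of the 1850 unfiltered-only regions (4.27%, 3.44 to 5.29), against 196 of the 8605 sharing regions (2.28%, 1.98 to 2.61), on 3.80% of the listed span. Among the 275 unfiltered regions there, 28.7% were unfiltered-only (23.7 to 34.3), against 11.8% of the 246 before 27 Mb on the same chromosome (8.33 to 16.4) and 17.4% outside the later part of chromosome 4 (16.7 to 18.1). The density of members was 1.55 per Mb there and 1.37 per Mb elsewhere. That of sharing regions was 3.84 per Mb there and 6.51 per Mb elsewhere. The higher share of members on the arm thus went with fewer sharing regions more than with more members.

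Along chromosome 4 the share was higher in each 10 Mb step from 30 Mb on than in those before. The part that was unfiltered-only was 11.97% of 117 regions from 0 to 10 Mb and 7.35% of 68 from 10 to 20 Mb. From 20 to 30 Mb it was 13.8% of 87 (8.07 to 22.6). It was then 33.3% of 51 regions from 30 to 40 Mb (22.0 to 47.0), and these 2 intervals overlapped. The next values were 31.2% of 48 from 40 to 50 Mb and 30.8% of 65 from 50 to 60 Mb. They were 33.3% of 48 from 60 to 70 Mb and 24.3% of 37 from 70 Mb on. The stretch of 6 members at chr4:26705101-26711200 adds to the counts from 20 to 30 Mb and before 27 Mb. The difference between the later part and the rest was present in short and in long regions. Up to 500 bp, 42.3% of the 97 regions on the later part were unfiltered-only (32.9 to 52.2), against 23.2% of 3916 elsewhere (21.9 to 24.5). Over 500 bp, 21.3% of 178 were (16.0 to 27.9), against 13.8% of 6264 elsewhere (12.9 to 14.7). Filtered-only regions showed the same contrast, making up 65.0% of the 545 filtered regions from 27 Mb on and 38.9% of the 332 before it. The 2 kinds of list therefore overlapped less on the later part of the chromosome in both directions.

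Among the other chromosomes, the part of the unfiltered list that was unfiltered-only ran from 12.4% on chromosome 2 (9.73 to 15.6, 60 of 485) to 23.8% on chromosome 12 (20.02 to 27.9, 105 of 442). Chromosome 15 was next to the top with 23.6% (19.8 to 27.9), then chromosome 22 with 22.3% (17.9 to 27.4) and chromosome 5 with 21.7% (18.6 to 25.1). Chromosomes 19, 9 and 3 followed chromosome 2 at the low end with 12.5%, 12.7% and 13.4%. Intervals of neighbours in this order overlapped. By density, chromosome 12 had 2.14 members per Mb and chromosome 15 had 2.06, while chromosome 3 had 0.894, the lowest. Chromosome 5 held the most members, 134, and the 11-member stretch adds to the count of chromosome 15.

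**Figure D3:**
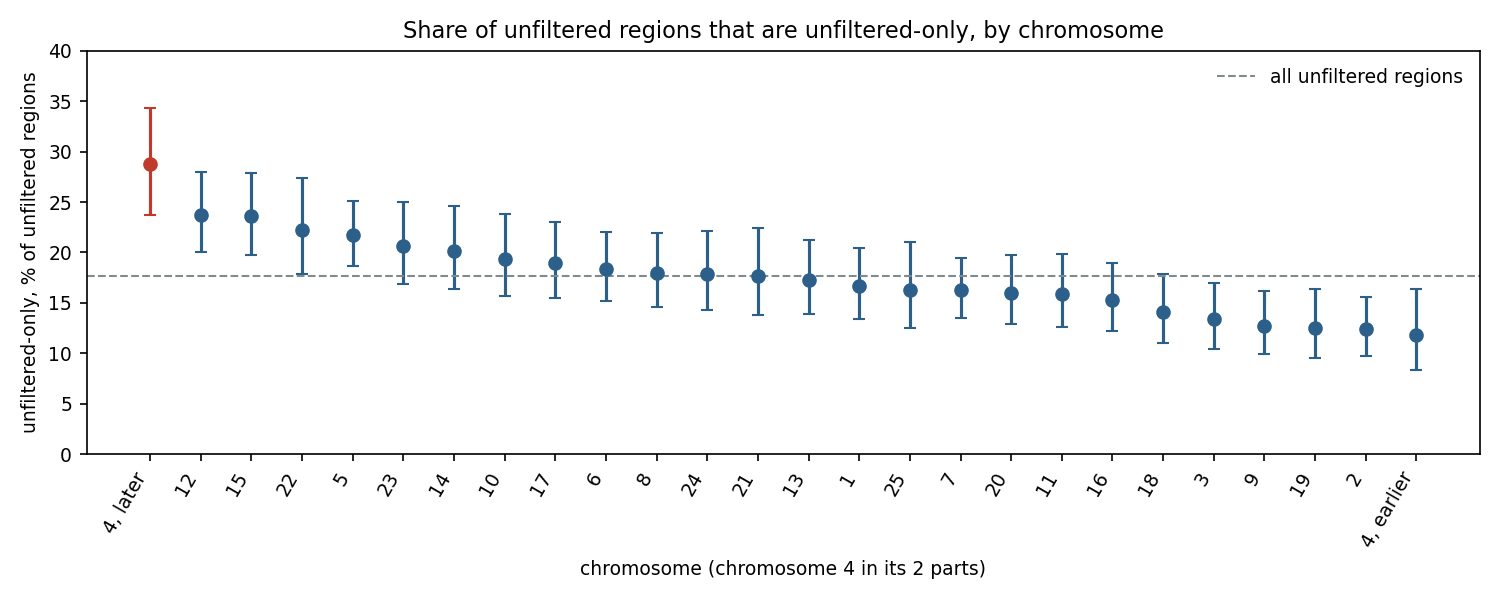
Unfiltered-only regions as a share (%) of the unfiltered regions of each chromosome, in falling order, with Wilson 95% intervals as bars and the share over all regions, 17.7%, as a dashed line. Chromosome 4 is split at 27 Mb, and its later part (red) has the highest value, 28.7%, and its earlier part the lowest, 11.8%.

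A smaller share of the members than of the sharing regions lay near chromosome ends. Within 1 Mb of an end lay 79 of the 1850 unfiltered-only regions (4.27%, 3.44 to 5.29), against 696 of the 8605 sharing regions (8.09%, 7.53 to 8.68). Over the whole listed span there were 1.38 members and 6.41 sharing regions per Mb. Set against 50 ends of 1 Mb each, the 79 members were not fewer than this density gives, while the 696 sharing regions were more. By number, the lower share of members thus went with more sharing regions near the ends and not with fewer members. By bases the shares were 2.70% of unfiltered-only and 8.24% of sharing bases. The 50 ends of 1 Mb are a larger part of the listed span of 1342.81 Mb than 2.70%, and a smaller one than 8.24%. Unlike by number, members thus had fewer bases near the ends than an even spread gives. The median distance to the nearer end was 15.1 Mb for members (14.5 to 15.6) and 11.3 Mb for sharing regions (10.9 to 11.6). Of the 50 chromosome ends, 37 had a member within 1 Mb and all 50 had a sharing region, and members outnumbered sharing regions at none of them. The end with the most members was the far end of chromosome 12, with 7 beside 26 sharing regions. The member with the highest score, on chromosome 7, lay 264.7 kb from an end and was the only member with signal at 0.5 within 1 Mb of one.

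The share of unfiltered regions that were unfiltered-only was lowest within 2 Mb of an end and higher in each class farther inside. This share depends on the number of sharing regions as well as on that of members. Within 1 Mb of an end sharing regions were denser than over the whole span, so a low share there does not mean few members by number. Unfiltered-only regions made up 11.3% of the unfiltered regions within 0.5 Mb (8.44 to 14.9), 9.20% at 0.5 to 1 Mb (6.75 to 12.4), 9.91% at 1 to 2 Mb (7.83 to 12.5), 13.7% at 2 to 5 Mb (11.9 to 15.8), 15.9% at 5 to 10 Mb (14.4 to 17.6), 19.5% at 10 to 20 Mb (18.3 to 20.9) and 23.0% beyond (21.3 to 24.7). Without chromosome 4 from 27 Mb on, the value beyond 20 Mb was 22.4%. Over 500 bp the share was 5.99% within 1 Mb (4.28 to 8.34) and 20.3% beyond 20 Mb (18.3 to 22.5), while up to 500 bp it was 19.5% within 1 Mb (15.0 to 25.0) and 26.9% beyond 20 Mb (24.2 to 29.7). Filtered-only regions rose in the same way, as they made up 34.0% of the filtered regions within 0.5 Mb and 52.2% beyond 20 Mb. Sharing regions were longer near the ends, with a median of 1200 bp within 0.5 Mb and 800 bp beyond 20 Mb, whereas the medians of members were 500 and 600 bp. How far the length of regions accounts for the trend in filtered-only regions was not tested.

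**Figure D4:**
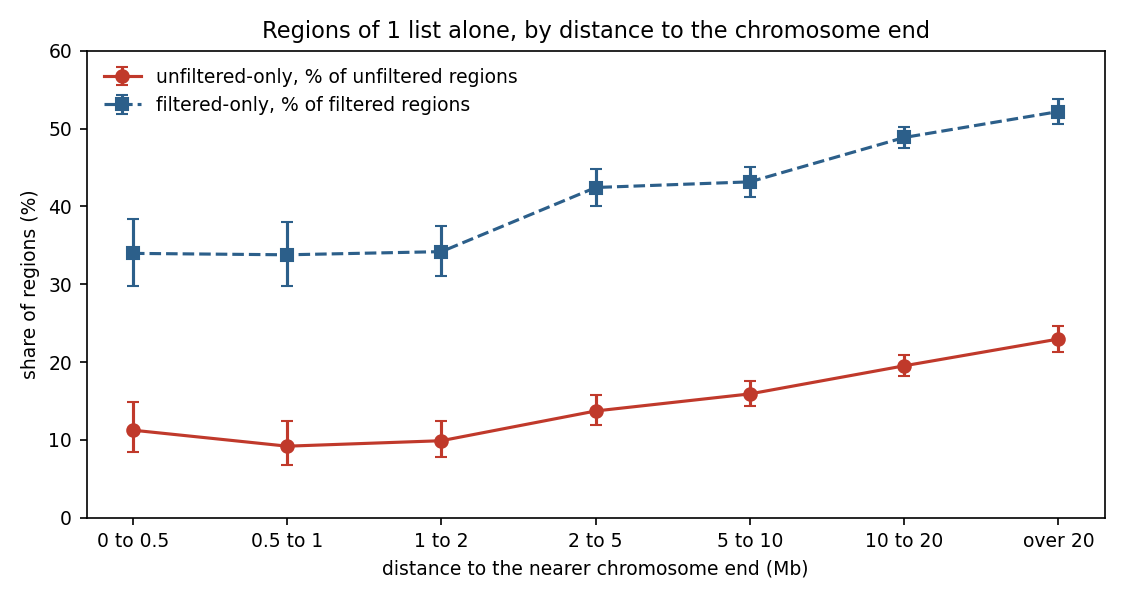
Share of regions (%) listed in 1 list alone by distance to the nearer chromosome end in Mb, for unfiltered-only regions among unfiltered ones (red) and filtered-only regions among filtered ones (blue), with Wilson 95% intervals as bars. Both are lowest within 2 Mb of an end and highest beyond 20 Mb, at 23.0% and 52.2%.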

How the data were processed

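Genomic DNA of wild-type (AB) zebrafish embryos was sequenced before and after a pull-down of uracil-containing fragments, with 1 library each. Trimmomatic, BWA, SAMtools and deepTools are named in the submitters' processing notes, and the reads were mapped to GRCz11. Region lists at 3 thresholds were deposited by the authors, from alignments filtered on mapping quality and from unfiltered ones. Which list is which was read from the list names. The only measurement in a deposited list is a score per region, whose scale is not stated. The program that made the regions and the cutoff on mapping quality were not stated in the labels or methods. Filtered and unfiltered scores were not assumed to share a scale. The lists give no counts of reads, and depth is unknown.

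An unfiltered-only region is a region of the unfiltered list at 0.25 with no base in the filtered list at 0.25. Overlaps, gaps and merged stretches were computed in Python 3.11.15 (pandas 2.3.3, numpy 2.4.6, scipy 1.17.1) and tested on simulated lists with known answers. Each chromosome was taken to end at the last base listed in any list, and a region lay near an end when its nearer edge was within 1 Mb of base 1 or of that last base. For a tie between neighbours, either being unfiltered-only counted. Shares have Wilson 95% intervals and medians have exact binomial ones. Both treat regions as independent and cover counting error only. Because 1 library was made per condition and the members were chosen from the score itself, no test was run. The regions given by position were the 10 with the highest score, the 5 longest, the 5 stretches with the most members together with those tied with the fifth, and those at the edge of the rule. The members and these choices were made with earlier results of these data known. Genes, sequence composition and repeat annotation were not analysed here.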

Additional observations from a re-analysis of the deposited data

How the results depend on the processing

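No paired analysis was possible because each condition had a single library. Of 76 recalculated values under 16 settings, 29 stayed within the interval of the main value (or within 1.5 times it, for counts and bases) and 47 moved. A change of threshold, window or distance also changes the quantity asked for, so some of these moves follow from the setting alone. Of the 51 set against sharing regions, 49 kept their order, which is the sign of the difference alone and counts differences of any size. Those of score, length and a base at the next threshold draw on the score that chose the members, so their order is no separate support. The 2 that turned were both the share of stretches with another within 100 kb, which was 25.8% for unfiltered-only and 18.8% for sharing stretches at a threshold of 0.5, and 36.8% and 8.96% at 1. The stretches are far fewer there and come from other sets of regions, and the cause was not tested.

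With both lists at 0.5 there were 370 unfiltered-only regions (32.8% of the list, 0.646 Mb), with a median length of 900 bp and a median score of 0.528. Of the 370, 5.68% lay on chromosome 4 from 27 Mb on (sharing regions 2.77%) and 6.49% near chromosome ends (8.32%). The nearest region was unfiltered-only for 61.9% of them and for 22.5% of sharing regions. The 370 had a median distance of 13.3 kb to a filtered region. A base in the next list, at 1, was found for 0.27% of them and for 10.6% of sharing regions. With both lists at 1 there were 29 (25.2%, 0.0501 Mb), with a median length of 1000 bp and a median score of 1.03. Of the 29, 0% lay near ends, against 3.49% of the 86 sharing regions, so the order at this threshold rests on very few regions. Beside another unfiltered-only region were 65.5%, against 16.7% of sharing regions, and the median distance to a filtered region was 10.9 kb.

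With regions covered to under 50% counted as members, they made up 20.4% of the list, with a median score of 0.265 and a median distance of 34.5 kb. A base at 0.5 was found for 3.57% of them and for 8.08% of sharing regions. With no filtered region allowed within 1 kb, they made up 16.1%, with a median score of 0.264 and 57.9 kb to a filtered region. Beside an unfiltered-only region were 62.6% of them and 7.74% of sharing regions. With regions of at least 500 bp there were 1018 (14.4%), with a median length of 1100 bp, a median score of 0.278 and 56.7 kb to a filtered region. Another stretch lay within 100 kb of 21.5% of their stretches (sharing 55.7%). The nearest region was unfiltered-only for 48.1% of them (sharing 9.26%), and 4.03% had a base at 0.5 (sharing 11.6%). Leaving out chromosome 4 from 27 Mb on moved none of the 10 values tried. That part held only 79 of the 1850 members and 196 of the 8605 sharing regions, so leaving it out could change these values little.

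By bases, unfiltered-only regions were 11.0% of the list and 2.70% of their bases lay near ends. Within 0.5 and 2 Mb of an end lay 2.27% and 7.73% of them, against 3.85% and 14.9% of sharing regions. The whole of chromosome 4 held 5.84% of unfiltered-only and 4.80% of sharing regions, on 5.81% of the listed span. The share of stretches with another nearby was 33.9% and 26.96% when merged within 5 and 20 kb, and 18.3% and 47.5% for another within 50 and 200 kb. Those of sharing stretches were, in the same order, 65.3%, 58.1%, 38.6% and 86.0%. At least 50% of the region was in the list at 0.5 for 0.703% of unfiltered-only and for 4.13% of sharing regions. Merged stretches were an alternative chosen after seeing the data. Those of unfiltered-only regions alone had another such stretch as neighbour in 35.9% of cases. The share was 14.7% for mixed stretches, 10.5% for stretches of sharing regions and 14.3% over all.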
